A study of Mus musculus with 6 samples.

Results

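The 10 genes described here are 7 matrix metalloproteinases, Mmp2, Mmp3, Mmp9, Mmp10, Mmp12, Mmp13 and Mmp14, and 3 of their tissue inhibitors, Timp1, Timp2 and Timp3. They were chosen by name, and all 10 were found among the 23381 genes of the deposited table. RNA was measured in whole mammary tumours of Balb/c mice, per the labels 10 weeks old, that had received 500000 cells of the syngeneic mouse mammary carcinoma line 4T1 into the inguinal mammary fat pad. One group of 3 libraries came from tumours of mice given Vismodegib, a small molecule that blocks the Hedgehog pathway protein Smoothened, at 2 mg per mouse, 3 times a week for 3 weeks. The other 3 libraries came from tumours of mice given the vehicle DMSO on the same schedule. The cells, the strain and the site of implantation were common to both groups. The labels do not say whether each library came from its own mouse. The p-values therefore reflect only how these libraries vary, which may in part be technical.

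Values are RPKM, reads scaled by gene length and library depth, which allow levels of genes of different length to be compared. The totals recovered from the steps between low values were 34800000 to 58000000 reads per library. Between 206 reads, for Mmp10 in DMSO replicate 1, and 24359 reads, for Timp1 in Vismodegib replicate 3, stood behind the members' values, estimated with the longest annotated transcript. The tissue is labelled as mammary tumour, and 8 epithelial markers, Epcam and Krt8 among them, summed to 2710 to 2880 RPKM in Vismodegib and 1776 to 2976 RPKM in DMSO tumours. Fibroblast, macrophage, neutrophil and muscle markers were also present. In such bulk tissue, fewer cells of a type and less RNA per cell cannot be told apart.

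Matrix metalloproteinases are zinc-dependent endopeptidases that cleave collagens, proteoglycans, elastin and many non-matrix proteins. They are made as inactive proenzymes, held inactive by a cysteine of the propeptide, and are activated by cleavage. The tissue inhibitors bind the active site of the mature enzymes, so RNA levels of enzymes and inhibitors do not by themselves give proteolytic activity. In mammary tumours these genes are expressed by carcinoma cells, fibroblasts, macrophages and neutrophils, each in part.

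No member passed the test of a difference between treated and control tumours. Every one of the 10 passed the filter of a mean of at least 0.5 RPKM, and limma's test on log2(RPKM + 0.5), adjusted by the Benjamini-Hochberg method over 11818 genes, called 0 of 10 members. The background was 0% of all genes tested at an adjusted p under 0.05, and the adjusted p of every member was 1. At an unadjusted p under 0.05, limma called 0 of 10 members, against a background of 2.25% of all genes. Timp1 passed that unadjusted threshold under several alternatives, and Timp2, Timp3 and Mmp9 under 1 each, none of them with an adjusted p under 0.05. In none of the 10 did the 2 groups separate without overlap, against 5.03% of all genes tested. Of the members, 7 had differences above 0 and 3 below, with a median of 0.35 (log2, Vismodegib minus DMSO), while 58.4% of all genes tested lay above 0 with a median of 0.05. The members' median was 0.10 without DMSO replicate 1, 0.54 without Vismodegib replicate 3 and 0.05 with library weights. The members also differed in how widely they varied from library to library within a group.

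**Figure D1:**
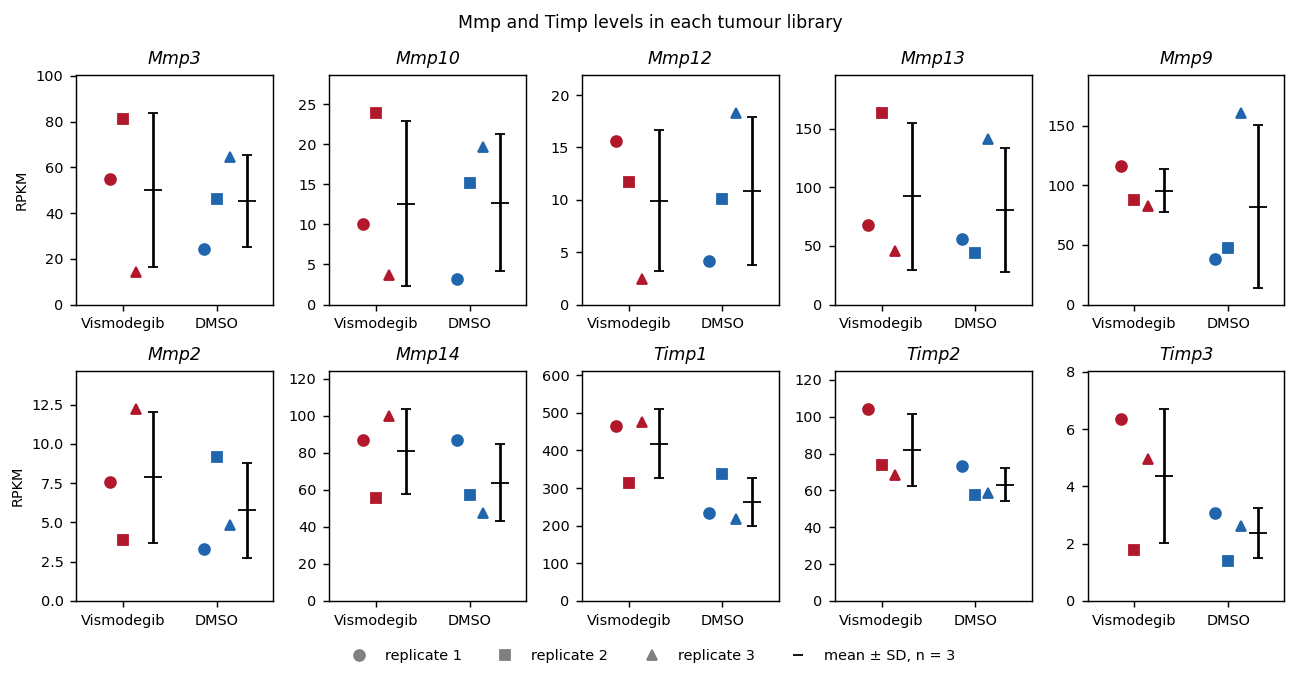
RPKM of each member (y axis, separate scale from 0 for each gene) in the 3 Vismodegib and 3 DMSO tumour libraries (x axis), with replicates marked by shape and the mean ± SD of 3 libraries beside them. In all 10 panels the groups overlap; Vismodegib replicate 3 is the lowest library for Mmp3 and Mmp12 and the highest for Mmp2, Mmp14 and Timp1.

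The secreted proteases Mmp3, Mmp10, Mmp12 and Mmp13 lie in one gene cluster. In the GENCODE M21 annotation of the mm10 build, their genes occupy 237.7 kb on the plus strand of chromosome 9, from 7272514 to 7510240, in the order Mmp13, Mmp12, Mmp3, Mmp10. The 150 bases upstream of their annotated starts are shown, with those of Timp1 for contrast. These 4 genes had DMSO replicate 3 among their highest 2 libraries, as had Mmp9, whose promoter was not looked at. Timp1 was lowest in that library, as was Mmp14. Whether the sequences bear on these levels was not tested. The sequences are from RefSeq on build GRCm38.p6, plus strand, 5′ to 3′, and for Mmp12 the downstream of its annotated starts was used. Capitals mark matches to the AP-1 motif TGANTCA, the site bound by Fos and Jun dimers, and to the TATA motif TATAAA.
Mmp3 (chr9:7445672-7445821): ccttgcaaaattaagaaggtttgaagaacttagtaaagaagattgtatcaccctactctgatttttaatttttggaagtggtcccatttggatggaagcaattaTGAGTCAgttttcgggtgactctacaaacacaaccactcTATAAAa
Mmp10 (chr9:7502192-7502341): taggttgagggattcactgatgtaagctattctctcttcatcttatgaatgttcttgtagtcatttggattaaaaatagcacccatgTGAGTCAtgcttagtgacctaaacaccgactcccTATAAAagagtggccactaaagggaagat
Mmp12 (chr9:7347224-7347373): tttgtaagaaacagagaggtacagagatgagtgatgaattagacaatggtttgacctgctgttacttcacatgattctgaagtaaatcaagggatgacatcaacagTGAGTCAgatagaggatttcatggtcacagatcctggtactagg
Mmp13 (chr9:7272364-7272513): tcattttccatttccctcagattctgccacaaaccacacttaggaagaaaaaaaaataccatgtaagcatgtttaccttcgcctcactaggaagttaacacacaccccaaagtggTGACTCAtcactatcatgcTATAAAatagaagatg
Timp1 (chrX:20870016-20870165): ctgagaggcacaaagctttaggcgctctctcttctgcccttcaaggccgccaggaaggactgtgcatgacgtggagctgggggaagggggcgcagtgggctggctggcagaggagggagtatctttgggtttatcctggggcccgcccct

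All 4 sequences from the cluster held 1 AP-1 match near the start, reaching from 46 to 40 bases upstream in Mmp3, 63 to 57 in Mmp10, 44 to 38 in Mmp12 and 35 to 29 in Mmp13. Across the 250 bases upstream of 32851 RefSeq starts, searched on both strands, 6.7% held TGANTCA and 12.4% held TATAAA. The TATA motif was found in Mmp3, Mmp10 and Mmp13, downstream of the AP-1 match in each, and the motifs did not overlap. Neither motif was found in the same windows of the upstream Mmp12 start, Mmp14, Timp1, Timp2 or Timp3. Promoters were matched for 8 of the 10 members, and those of Mmp2 and Mmp9 were not looked at. A match of letters is a description of the sequence and no measurement of binding.

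**Figure D2:**
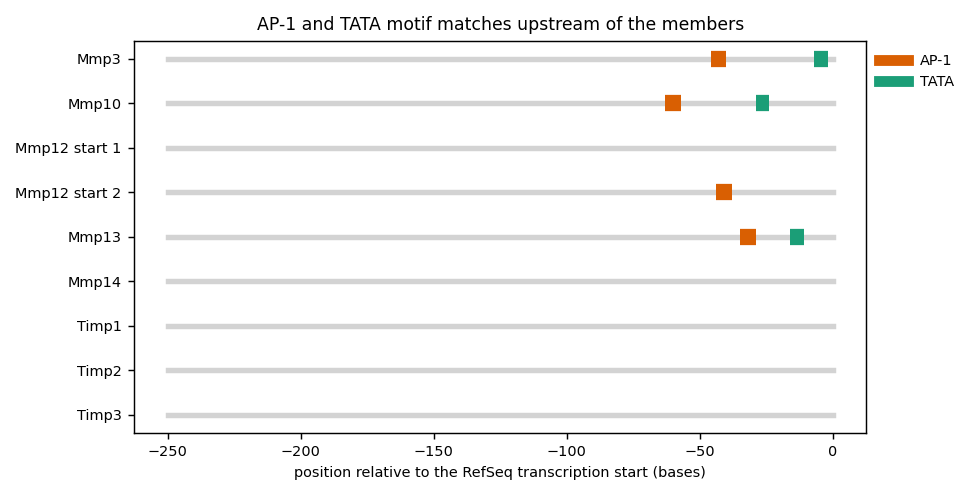
Position of AP-1 (orange) and TATA (green) motif matches in the 250 bases upstream of each RefSeq start (x axis, bases relative to the start), for the 8 members with a promoter sequence and both starts of Mmp12. The AP-1 matches of the 4 cluster genes lie within 63 bases of the start, and the other windows hold no match.

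Mmp3, or stromelysin 1, cleaves proteoglycans, laminin and fibronectin and activates other proenzymes. It had 54.7, 81.2 and 14.4 RPKM in Vismodegib replicates 1, 2 and 3, against 24.5, 46.2 and 64.7 RPKM in DMSO replicates 1, 2 and 3. The treated libraries held both the highest and the lowest value of the 6, so the control range fell inside the treated range. By limma, the log2 difference was -0.06 (95% interval from -1.46 to 1.34, adjusted p = 1). Mmp10, or stromelysin 2, is its closest relative in sequence among the members. It was at 10.1, 23.9 and 3.72 RPKM in Vismodegib, against 3.19, 15.2 and 19.7 RPKM in DMSO replicates 1, 2 and 3. Low libraries occurred in both groups, Vismodegib replicate 3 and DMSO replicate 1, and the difference was -0.04 (95% interval from -1.74 to 1.67). Of the 50-base stretches in the longest transcript of Mmp3 and of Mmp10, 8.4% occurred in a transcript of another gene, in part each other's, so a share of their reads is uncertain. The ratio of Mmp10 to Mmp3 RPKM ran from 0.184 to 0.294 in Vismodegib and from 0.13 to 0.33 in DMSO tumours.

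Mmp12, the elastin-degrading enzyme made chiefly by macrophages, had 15.6, 11.7 and 2.46 RPKM in Vismodegib replicates 1, 2 and 3, against 4.17, 10.1 and 18.3 RPKM in DMSO. Again Vismodegib replicate 3 and DMSO replicate 1 were the lowest, and the ratio of the highest to the lowest library was 7.43. The difference was -0.22 by limma, with a 95% interval from -1.78 to 1.33. Mmp13, or collagenase 3, which cuts fibrillar collagens in their triple helix, was on average the most abundant gene of the cluster. It had 68.0, 163.4 and 45.6 RPKM in Vismodegib, against 56.2, 43.8 and 141.4 RPKM in DMSO. A single library stood high in each group, Vismodegib replicate 2 and DMSO replicate 3, and the other 4 lay between 43.8 and 68.0 RPKM. The difference was 0.18 with a 95% interval from -1.08 to 1.44. Two-sided exact permutation tests over the 6 libraries, in which 0.1 is the smallest p that 3 against 3 allows, gave p = 1 for Mmp3 and Mmp10 and p = 0.7 for Mmp12 and Mmp13.

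The direction of these 4 differences rested on single libraries. Without Vismodegib replicate 3, the differences were 0.66 for Mmp3, 0.61 for Mmp10, 0.52 for Mmp12 and 0.58 for Mmp13. Without Vismodegib replicate 2, they were -0.56, -0.66, -0.50 and -0.34 in the same order of genes. Leaving out DMSO replicate 3 turned Mmp3 to 0.25, Mmp10 to 0.43 and Mmp12 to 0.25, and gave 0.68 for Mmp13. Without DMSO replicate 1 the values were -0.44, -0.79, -0.76 and 0.02, and without DMSO replicate 2 they were 0.01, 0.25, -0.17 and -0.16, again in that order. By limma, the within-group SD on the log2 scale was 1.04 for Mmp3, 1.30 for Mmp10, 1.17 for Mmp12 and 0.91 for Mmp13, which placed them at percentiles 95.2 to 98.4 of all genes tested.

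Other readouts moved across the libraries beside the cluster. The 10 neutrophil markers, S100a8 and S100a9 included, summed to 103.1, 108.7 and 15.6 RPKM in Vismodegib replicates 1, 2 and 3, against 25.2, 80.7 and 220.4 RPKM in DMSO. S100a8 and S100a9 made up most of the sum, which was lowest in Vismodegib replicate 3 and DMSO replicate 1, the low libraries of Mmp3, Mmp10 and Mmp12. S100a8, S100a9, Cxcr2 and Retnlg each had their lowest 2 values in those libraries. The other markers did not follow that order. Ly6g, Camp, Ngp and Elane were at 0 in Vismodegib replicate 3 and DMSO replicate 2 and above 0 in DMSO replicate 1, where Camp had 1.73 RPKM. Csf3r was lowest in DMSO replicate 2, at 1.09 RPKM against 1.49 RPKM in DMSO replicate 1, and none of the 10 was at 0 in every library. Across genes, the correlation between GC content and the deviation from each gene's mean was -0.22, -0.35 and 0.29 in Vismodegib replicates 1, 2 and 3, against -0.04, 0.21 and -0.15 in DMSO. It was below 0 in Vismodegib replicate 2, where the cluster genes lay above their mean log2 level. In Vismodegib replicate 3 it was above 0, and there the cluster genes lay below their mean. It was near 0 in DMSO replicate 1, where Mmp3, Mmp10 and Mmp12 were low. In DMSO replicate 2 it was above 0, and there Mmp3, Mmp10 and Mmp12 lay 0.17, 0.60 and 0.23 above their mean log2 level. Mmp13 was at -0.77 from its mean there, its lowest library, and at -0.41 in DMSO replicate 1. The longest transcripts of the cluster genes have 40.3% to 46.0% GC, against 46.8% to 55.3% in the other 6 members. After GC content and transcript length were regressed out of every library, the highest and the lowest library were 2.21 apart for Mmp3 on the log2 scale, against 2.46 as deposited. The corresponding values were 2.41 against 2.72 for Mmp10, 2.26 against 2.67 for Mmp12 and 1.62 against 1.89 for Mmp13, with the same highest and lowest library in each. The parts of neutrophil content and of GC content in these levels were not tested.

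The other genes of the cluster analysed here, Mmp1a, Mmp8 and Mmp27, had at most 0.89 RPKM in a library. Mmp1a, the counterpart of human interstitial collagenase, was at 0.0831, 0.89 and 0.0341 RPKM in Vismodegib and at 0, 0.156 and 0.379 RPKM in DMSO replicates 1, 2 and 3. Mmp8, the collagenase of neutrophil granules, was at 0.228, 0.0965 and 0 RPKM in Vismodegib and at 0.022, 0.0947 and 0.438 RPKM in DMSO. Its order of libraries put Vismodegib replicate 3 and DMSO replicate 1 lowest, as for the neutrophil marker sum. At values so near 0 that order is uncertain. Mmp27 was listed above 0 in 1 library, and Mmp1b, Mmp7 and Mmp20 were not analysed here.

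**Figure D3:**
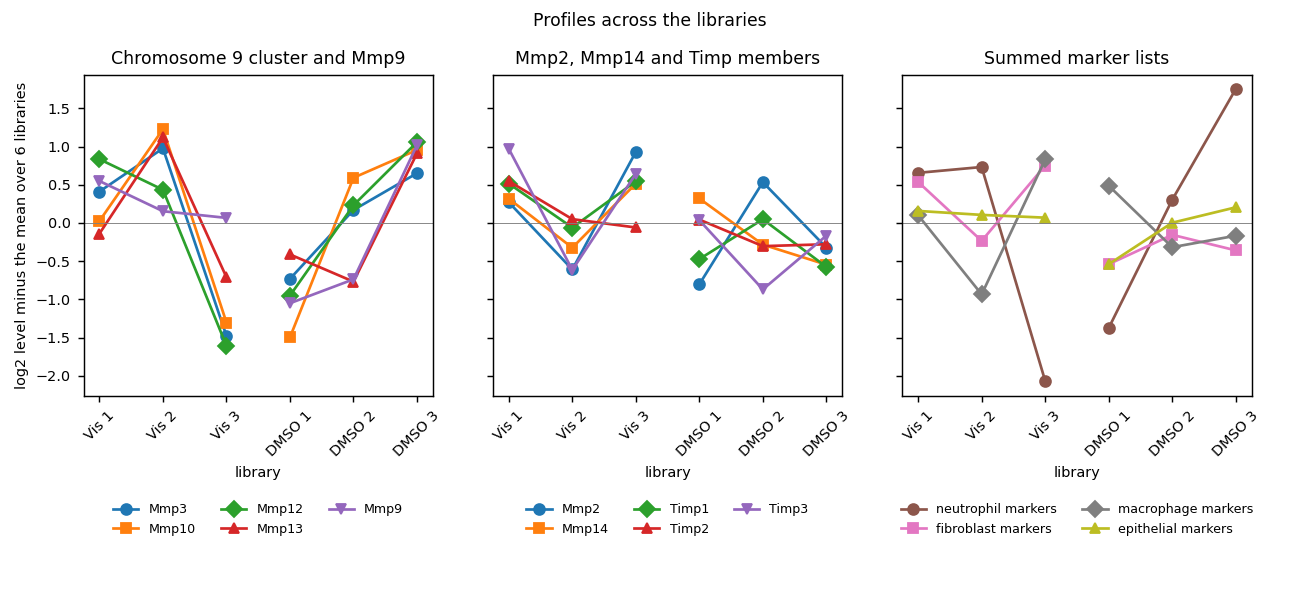
Log2 level of each member (log2(RPKM + 0.5), left and middle) and of summed RPKM of marker lists (right), each minus its mean over the 6 libraries (y axis), by library (x axis, Vis for Vismodegib). Lines only join the points of 1 gene or list. Mmp3, Mmp10, Mmp12 and the neutrophil sum are low in Vismodegib replicate 3 and DMSO replicate 1.

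The gelatinases Mmp9 and Mmp2 cleave denatured collagen and the collagen of basement membranes, and differed in their pattern. Mmp9, which neutrophils, macrophages and carcinoma cells make, had 115.9, 88.0 and 82.8 RPKM in Vismodegib replicates 1, 2 and 3, against 37.9, 47.2 and 160.7 RPKM in DMSO. All treated libraries lay between the second and the highest control, and DMSO replicate 3 stood above every other library. Means were 95.6 ± 17.8 RPKM in Vismodegib and 81.9 ± 68.4 RPKM in DMSO (SD, n = 3 each). The log2 difference by limma was 0.51, with a 95% interval from -0.63 to 1.66. Without DMSO replicate 3 it was 1.15, which passed at an unadjusted p under 0.05 but had an adjusted p of 1 by limma, and with library weights, which limma set at 7.28 for that library, it turned to -0.60.

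Mmp2, made mainly by fibroblasts, had 7.54, 3.87 and 12.2 RPKM in Vismodegib, against 3.32, 9.15 and 4.83 RPKM in DMSO replicates 1, 2 and 3. A single treated library, replicate 3, was above all controls, and the other 2 were within the control range. The difference was 0.39 (95% interval from -0.65 to 1.44 by limma), with 0.03 when Vismodegib replicate 3 was left out and 0.80 when Vismodegib replicate 2 was. Mmp14 is the membrane-bound protease that cuts collagen at the cell surface and, with Timp2 as a bridge, activates the Mmp2 proenzyme. It was at 87.0, 55.6 and 99.9 RPKM in Vismodegib, against 87.2, 57.2 and 47.6 RPKM in DMSO. Vismodegib replicate 3 was above all controls, and the other 2 treated libraries were within the control range. By limma the groups differed by 0.34 (95% interval from -0.42 to 1.10). The ratio of its highest to its lowest library was 2.1, the narrowest of the 7 proteases. Two-sided exact permutation tests gave p = 0.5 for Mmp9 and Mmp14 and p = 0.6 for Mmp2.

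Timp1, a secreted inhibitor induced in many injured and inflamed tissues, was the most abundant member in every library and the one with the smallest unadjusted p. It had 465.8, 312.4 and 475.6 RPKM in Vismodegib replicates 1, 2 and 3, against 234.5, 336.9 and 218.4 RPKM in DMSO. Of the treated libraries, 2 were above every control, while replicate 2 lay below DMSO replicate 2. The means were 417.9 ± 91.6 RPKM in Vismodegib and 263.3 ± 64.2 RPKM in DMSO (SD, n = 3 each). The log2 difference was 0.67 (SE 0.302), with a 95% interval from -0.02 to 1.35, an unadjusted p of 0.0556 and an adjusted p of 1 by limma. A two-sided exact permutation test gave p = 0.2. Leaving out each library in turn gave differences from 0.55 to 0.86, all above 0.

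Timp2, which inhibits most of the family and also takes part in Mmp2 activation, had 104.1, 73.6 and 68.2 RPKM in Vismodegib, against 73.3, 57.5 and 58.5 RPKM in DMSO. Treated replicates 1 and 2 were above all controls, replicate 2 by a small margin over DMSO replicate 1, and replicate 3 was below it. The difference was 0.36, with a 95% interval from -0.26 to 0.97 by limma. Timp3, which binds to the matrix and also inhibits proteases of the ADAM family, had 6.34, 1.78 and 4.95 RPKM in Vismodegib, against 3.08, 1.41 and 2.61 RPKM in DMSO. Vismodegib replicate 2 lay among the controls and the other 2 treated libraries were above them. Its difference was 0.67, with a 95% interval from -0.33 to 1.67, with 1.14 when Vismodegib replicate 2 was left out and 0.35 when Vismodegib replicate 1 was. Exact permutation tests gave p = 0.2 for Timp2 and p = 0.3 for Timp3. By limma, the within-group SD was 0.34 for Timp1 and 0.27 for Timp2, at percentiles 43.3 and 26.4 of all genes tested, and 0.68 for Timp3, at percentile 88.7.

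Neighbouring genes limit the reading of the inhibitors. Timp1 lies inside Syn1, and Timp3 inside Syn3, synapsin genes on the opposite strand, and the use of strand is not given in the sources used here. Syn1 was at 0.047 to 0.211 RPKM in Vismodegib and 0.049 to 0.06 RPKM in DMSO, far below Timp1. Timp2 overlaps Cep295nl on the same strand, which was at 0.136, 0.205 and 0.115 RPKM in Vismodegib and 0.124, 0.34 and 0.114 RPKM in DMSO replicates 1, 2 and 3. Syn3 had 0.687, 0.175 and 0.085 RPKM in Vismodegib and 0.155, 0.002 and 0.321 RPKM in DMSO replicates 1, 2 and 3. Of the 50-base stretches in the longest Timp3 transcript, 36.3% occurred in transcripts of other genes. The share was at most 1.8% in the other members apart from Mmp3 and Mmp10.

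Markers of connective tissue moved in part beside Timp1 and Mmp2. The 10 fibroblast markers, collagen genes among them, summed to 190.5, 111.6 and 221.1 RPKM in Vismodegib replicates 1, 2 and 3, against 90.3, 117.9 and 102.4 RPKM in DMSO, and none was at 0 in a library. Vismodegib replicates 3 and 1 were the highest 2 libraries for both the marker sum and Timp1, followed by DMSO replicate 2 in both. Mmp2 had the same highest and lowest library as the sum, Vismodegib replicate 3 and DMSO replicate 1, but another order between them. Single markers differed in order, with Col1a1 highest in Vismodegib replicate 3, Dcn, Dpt and Thy1 in Vismodegib replicate 1 and Pdgfra in DMSO replicate 1. The macrophage markers summed to 1641, 800.3 and 2723 RPKM in Vismodegib, against 2146, 1228 and 1363 RPKM in DMSO, and none was at 0 in a library. The complement gene C1qa made up most of this sum, at 1212, 606.0 and 2284 RPKM in Vismodegib, against 1722, 809.6 and 1010 RPKM in DMSO. The highest 3 libraries of the sum, Vismodegib replicate 3, DMSO replicate 1 and Vismodegib replicate 1, were those of Mmp14. The first 2 of them were the lowest libraries of Mmp12, at 2.46 and 4.17 RPKM. Other markers ordered the libraries differently. Cd68 was at 18.1, 8.03 and 6.21 RPKM in Vismodegib, against 8.65, 20.9 and 14.6 RPKM in DMSO. C1qb and Trem2 were also highest in DMSO replicate 2, and Mrc1 was lowest in Vismodegib replicate 3. The part of fibroblast and macrophage content in these levels was not tested.

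**Figure D4:**
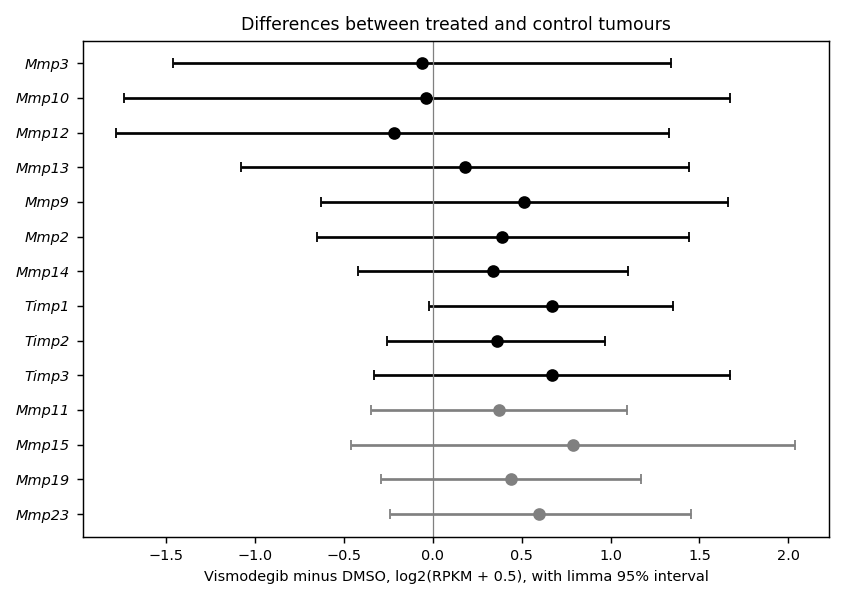
Difference between Vismodegib and DMSO tumours on the log2(RPKM + 0.5) scale (x axis, above 0 means higher in Vismodegib) with its 95% interval from limma, for the 10 members (black) and 4 other family genes (grey). Every interval includes 0; the intervals of Timp1 and Timp2 are the narrowest and those of Mmp10 and Mmp12 the widest among the members.

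Averaged over the 6 libraries, the levels followed the order Timp1 (340.6 RPKM), Mmp9 (88.8), Mmp13 (86.4), Timp2 (72.5), Mmp14 (72.4), Mmp3 (47.6), Mmp10 (12.6), Mmp12 (10.4), Mmp2 (6.82) and Timp3 (3.36). Timp1 exceeded Mmp9 in all 6 libraries, Mmp3 exceeded Mmp10 in all 6 and Mmp2 exceeded Timp3 in all 6. Mmp9, Mmp13, Timp2, Mmp14 and Mmp3 formed a middle tier in which each neighbour in the order changed places in 2 or more libraries. Mmp10 was above Mmp12 in 4 of the 6, and Mmp12 above Mmp2 in 5 of the 6.

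Summed levels set the proteases against their inhibitors, as levels of RNA and not of activity. The 7 proteases summed to 358.8, 427.8 and 261.1 RPKM in Vismodegib replicates 1, 2 and 3, against 216.4, 228.9 and 457.2 RPKM in DMSO. The 3 inhibitors summed to 576.2, 387.7 and 548.8 RPKM in Vismodegib, against 310.9, 395.8 and 279.5 RPKM in DMSO, and Timp1 made up 80.6% to 86.7% of that sum in Vismodegib and 75.4% to 85.1% in DMSO. The ratio of the protease sum to the inhibitor sum was 0.623, 1.10 and 0.476 in Vismodegib, against 0.696, 0.578 and 1.64 in DMSO. It was above 1 in Vismodegib replicate 2 and DMSO replicate 3, the 2 libraries highest in Mmp13, so that the groups overlapped. The main protease by RNA differed between libraries. Mmp9 led in Vismodegib replicate 1 and DMSO replicate 3, Mmp13 in Vismodegib replicate 2, and Mmp14 in Vismodegib replicate 3 and in DMSO replicates 1 and 2.

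**Figure D5:**
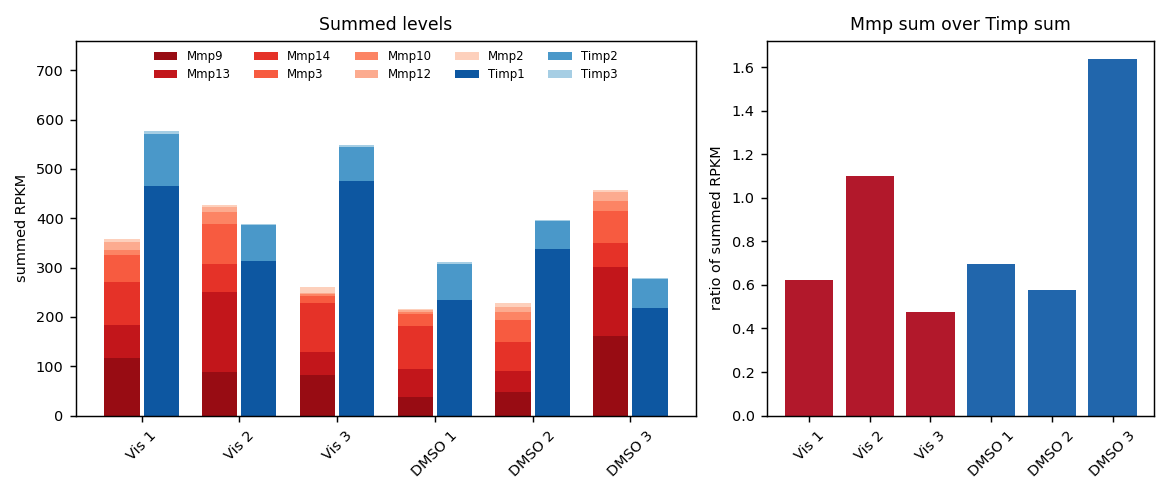
Left, RPKM of the 7 proteases (reds) and the 3 inhibitors (blues) stacked for each library (x axis, Vis for Vismodegib). Right, the ratio of the sums (Vismodegib red, DMSO blue), which is above 1 in Vismodegib replicate 2 and DMSO replicate 3 and between 0.476 and 0.696 in the other 4.

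Single ratios of a protease to its inhibitor gave no separation of the groups either. Mmp9 over Timp1, a pair known to form a complex as proenzyme and inhibitor, was 0.249, 0.282 and 0.174 in Vismodegib, against 0.162, 0.14 and 0.736 in DMSO. Mmp14 over Timp2 was 0.836, 0.756 and 1.46 in Vismodegib, against 1.19, 0.994 and 0.813 in DMSO. Mmp2 over Timp2 lay between 0.0527 and 0.179 in Vismodegib and between 0.0453 and 0.159 in DMSO. Mmp3 over Timp1 lay between 0.0302 and 0.26 in Vismodegib and between 0.104 and 0.296 in DMSO.

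Of the other 17 genes of the family, 12 were in the table and 4 were high enough to be tested, all with differences above 0 and a median of 0.52, which was 0.31 without Vismodegib replicate 1. By limma, 0 of these 4 passed at an adjusted or at an unadjusted p under 0.05, against 0% and 2.25% of all genes tested. Mmp15, a membrane-type protease, was at 4.90, 1.44 and 3.52 RPKM in Vismodegib, against 4.07, 0.792 and 0.879 RPKM in DMSO. Mmp23 was at 2.61, 1.93 and 4.88 RPKM in Vismodegib, against 1.26, 2.75 and 1.53 RPKM in DMSO. Mmp11, or stromelysin 3, known from the stroma around carcinomas, and Mmp19 had differences of 0.37 and 0.44. The 8 untested ones, Timp4 among them, had means of at most 0.257 RPKM.

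Among 20 tested activators and partners of the proteases, 13 had differences above 0 and 7 below, with a median of 0.19. For these, limma called 0 at an adjusted and 0 at an unadjusted p under 0.05, against 0% and 2.25% of all genes tested. That median was 0.06 without Vismodegib replicate 1, 0.05 without DMSO replicate 1, 0.04 without DMSO replicate 2 and -0.04 with library weights. Plat, the tissue plasminogen activator, had the smallest unadjusted p of them, 0.0639, at 2.71, 2.29 and 2.58 RPKM in Vismodegib against 2.43, 1.21 and 0.788 RPKM in DMSO. Its difference was 0.70, and library weights raised it to 1.13 with an adjusted p of 0.0246 by limma. With those weights 420 of the 11818 genes tested were called, and their estimation stopped short of its tolerance. The largest weight, 7.28, was on DMSO replicate 3, where Plat was lowest. Lcn2, the lipocalin that binds Mmp9 in a complex in neutrophil granules, was at 406.7, 139.9 and 99.8 RPKM in Vismodegib, against 172.5, 23.8 and 104.4 RPKM in DMSO. Pcsk6, a proprotein convertase, and Lrp1, an uptake receptor for protease complexes, had differences of 0.46 and -0.47. Of 16 tested ADAM and ADAMTS relatives, 10 lay above 0 and 6 below, with a median of 0.09, and limma called 0 at an adjusted and 1 at an unadjusted p under 0.05. Their median turned to -0.03 without Vismodegib replicate 1 and to -0.04 with library weights, was 0.04 without DMSO replicate 1, and was 0.17 without Vismodegib replicate 2 and without DMSO replicate 3. Adamts15 was at 1.10, 0.391 and 0.998 RPKM in Vismodegib, against 0.175, 0.105 and 0.396 RPKM in DMSO, with an unadjusted p of 0.0228 and an adjusted p of 1 by limma. Adamts4 and Adamts1, which cleave the proteoglycans aggrecan and versican, had differences of 0.47 and 0.61, and Adamtsl4 of -0.58.

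The genes most like each member were found by the root mean square difference of log2 values, each centred on its mean over the 6 libraries, among the 11818 genes tested. With 6 values per gene, such likeness is a description of these libraries. Mmp12 was closest to Hmox1, heme oxygenase 1, at 0.17, and next to Hilpda, a lipid droplet protein induced by low oxygen, at 0.27. Hmox1 was at 39.3, 32.2 and 7.83 RPKM in Vismodegib and at 15.5, 35.9 and 54.7 RPKM in DMSO replicates 1, 2 and 3. Hilpda was also next to Mmp3, at 0.28, after Syne3 at 0.17, and Mmp3 ranked 7 of all genes in likeness to Mmp12. Mmp10 was nearest to Mcpt1, a mast cell protease, at 0.28, and to Atg9b at 0.29, and Mmp13 to Itga2, the collagen-binding integrin chain, at 0.24, and Gm12940 at 0.27.

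Mmp9 had a different neighbour from the cluster. It was nearest to the epithelial keratin Krt19, at 0.12, with Ldhd at 0.24. Krt19 was at 171.2, 122.8 and 112.6 RPKM in Vismodegib and at 51.4, 55.5 and 193.6 RPKM in DMSO replicates 1, 2 and 3. Mmp2 was nearest to Serpinf1, a secreted anti-angiogenic serpin of stromal cells, at 0.14, and to Gm21988 at 0.16. The nearest gene of Mmp14 was Cyba, a subunit of the phagocyte oxidase, at 0.07. For the inhibitors they were Pdia5 at 0.07 and Gm13889 at 0.11 for Timp1, Cpped1 at 0.04 and Adi1 at 0.06 for Timp2, and Cbr3 at 0.14 and Myh14 at 0.17 for Timp3.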

How the data were processed

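The 3 Vismodegib and 3 DMSO libraries of tumour RNA were read as pairs of 150 bases. RPKM values for 23381 gene symbols were deposited by the authors. The submitters' processing notes list the mm10 build and the tools STAR, HISAT2, cutadapt, Partek, SAMtools and bcl2fastq 2.17, without their order; which annotation and strand setting served is not stated there. As RPKM is scaled to the library total, each value also moves with the RNA of other genes. Totals were recovered from 6992 genes with 1 GENCODE M21 transcript. Between 83.6% and 85.2% of low values were then whole reads within 0.02, and a total too high by a whole-number factor would not be seen. Not all values were whole, so no count test was run.

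The filter kept genes averaging 0.5 RPKM or more. They were tested on log2(RPKM + 0.5), which understates changes of low genes, with limma 3.58.1 in R 4.3.3 (eBayes with a mean-variance trend, group as the only term, two-sided), after the steps were tested on simulated data. Groups came from the titles. The members and lists were chosen with earlier results of these data known. Named genes were the members, family genes past the filter, the 4 genes of smallest p in the partner and relative lists, and the 2 genes most like each member, 1 of which is not reported here; Syn1, Syn3, Mmp1a, Mmp8 and Mmp27 were named for their position.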

Additional observations from a re-analysis of the deposited data

How the results depend on the processing

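Across 17 alternatives to the pseudocount, filter, scaling, moderation, library weights, replicate block, GC and length trend, and library set, limma called 0 members, and the smallest adjusted p of a member was 0.0657. Of 170 recomputed member differences, 158 kept their direction. Changes to the filter, the moderation and the replicate block cannot alter a member's difference, so their share of the 158 was fixed in advance. With library weights, whose estimation stopped short of its tolerance, Mmp9 was -0.60 and Mmp13 -0.27. Leaving out 1 library gave Mmp3 from -0.56 to 0.66 and Mmp10 from -0.79 to 0.61. Mmp12 then ran from -0.76 to 0.52, Mmp13 from -0.34 to 0.68 and Mmp9 from 0.12 to 1.15. Across all alternatives, only the 4 cluster genes and Mmp9 turned, Mmp9 with library weights alone. The cause was not tested. Among all genes, 420 were called with library weights, 1 with the replicate block and 0 to 19 with 1 library left out, 19 without DMSO replicate 1, against 0 as reported; the count of members called was 0 in each. The median of the 3 inhibitors, 0.67, was 0.35 without Vismodegib replicate 1, 0.40 without DMSO replicate 2 and up to 0.86 without another library. At an unadjusted p under 0.05, Timp1 passed with quantile normalization, with no trend in the moderation, with library weights, with the GC and length trend removed, and without Vismodegib replicate 2 or DMSO replicate 2. Timp2 passed with library weights, Timp3 without Vismodegib replicate 2 and Mmp9 without DMSO replicate 3. The median of the other family genes was 0.09 with no filter on low values, where untested low genes enter. With the GC and length trend removed, the median of the activators and partners was 0.11. The median of the ADAM and ADAMTS genes was 0.04 with that trend removed, 0.05 with median-ratio scaling, 0.03 with quantile normalization and 0.14 with a pseudocount of 0.1. Same-numbered libraries did not deviate together (correlations of 0, 0.04 and -0.30), and differently numbered ones had correlations from -0.23 to 0.30. Such correlations cannot show whether the numbers pair the samples, and the titles do not say. The fewest reads behind a member's value were an estimated 206.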
